A study of Mus musculus with 6 samples.

Results

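Paneth cells sit between the stem cells at the base of the small intestinal crypt and release granules of antimicrobial proteins into the crypt. The 8 genes described here encode such granule products: Lyz1, Mmp7, Ang4, Itln1, Defa17, Defa22, Defa24 and Defa30. They were taken by gene name from the deposited table, which lists 28752 genes, and all 8 were listed and passed the filter on low counts. RNA sequencing covered 6 samples of mouse Lgr5+ intestinal stem cells (ISCs) from Lgr5-GFP mice, labelled as intestinal crypt stem cells and grown into crypt-villus organoids; by the methods, GFP-positive cells were sorted by flow cytometry before culture. The vector group (n = 3, genotype given as WT) was compared with circEZH2_005 overexpression from an adenovirus (n = 3). All 6 samples had been exposed to hypoxia/reoxygenation (H/R), with the organoids kept at 2% O2, 5% CO2 and 93% N2 for 4 h, and no sample under normal oxygen is part of the contrast. Infection lasted 72 h before H/R by the labels, whereas the organoid methods give 48 h from transfection to H/R. The age of the Lgr5-GFP mice is not given separately in the sources used here. The study states independent biological replicates for its experiments in general, but the labels do not say whether these samples came from separate animals or cultures, so p-values measure only the spread between these samples, which may be technical.

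In the crypt, the α-defensins are made as inactive propeptides, and in the mouse Mmp7 (matrilysin), a metalloproteinase, cuts them to their active form. Lyz1 (lysozyme of the Paneth cell) breaks bacterial cell walls, Ang4 is an angiogenin with antimicrobial activity, and Itln1 (intelectin) is a lectin that binds sugars on microbes. Paneth cells depend on Wnt signalling, which acts through TCF/LEF factors, and on the transcription factors Atoh1, Gfi1 and Sox9, and they also supply Wnt3, Egf and Notch ligands to neighbouring stem cells.

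The α-defensin genes are near copies of each other, which bears on how their reads were assigned, and the coding part of the last exon, which holds most of the mature peptide, is shown for the 4 members. These sequences were taken from GENCODE M21 transcripts (GRCm38) on the plus strand of chromosome 8, at chr8:21656532-21656638 (Defa17), chr8:21163046-21163152 (Defa22), chr8:21735268-21735374 (Defa24) and chr8:21135394-21135500 (Defa30). Each is 107 bases, written 5′ to 3′. Capitals mark bases that differ from Defa24, and in Defa24 the bases at which any of the other members differs.
Defa17: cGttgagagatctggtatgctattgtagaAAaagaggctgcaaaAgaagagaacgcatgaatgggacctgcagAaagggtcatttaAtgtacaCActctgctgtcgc
Defa22: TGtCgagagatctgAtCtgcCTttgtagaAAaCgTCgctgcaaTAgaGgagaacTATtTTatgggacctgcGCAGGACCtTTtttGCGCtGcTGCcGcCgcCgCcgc
Defa24: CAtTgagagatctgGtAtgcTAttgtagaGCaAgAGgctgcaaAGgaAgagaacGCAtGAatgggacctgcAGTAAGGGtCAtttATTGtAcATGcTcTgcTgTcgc
Defa30: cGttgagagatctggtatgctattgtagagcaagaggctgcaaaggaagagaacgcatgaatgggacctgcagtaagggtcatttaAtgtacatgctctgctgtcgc
Defa30 differed from Defa24 at 2 of 107 bases and Defa17 at 8, whereas Defa22 differed at 42. Defa17 was identical over this stretch to Defa3, which is no member, and Defa22 was 99.1% identical to Defa21. All 27 numbered α-defensin genes of the table lie on chromosome 8 between 21025545 and 21735471, a span of 709.9 kb.

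Promoters were examined because Wnt signalling acts on Paneth cell genes through TCF/LEF factors and the members varied together across samples, as given further on. The RefSeq promoter table (GRCm38.p6) held 6 of the 8 genes, all but Defa17 and Defa24. The TCF/LEF core letters ATCAAAG were searched on both strands of the window from 250 bases before to 30 bases after each start. They were found in the promoters of Mmp7 (the first of its 2 listed starts, chr9:7691840-7692119), Defa22 (chr8:21162027-21162306) and Defa30 (chr8:21134400-21134679), all on the plus strand, which is the strand of these genes. Those 3 sequences follow, with the core in capitals.
Mmp7: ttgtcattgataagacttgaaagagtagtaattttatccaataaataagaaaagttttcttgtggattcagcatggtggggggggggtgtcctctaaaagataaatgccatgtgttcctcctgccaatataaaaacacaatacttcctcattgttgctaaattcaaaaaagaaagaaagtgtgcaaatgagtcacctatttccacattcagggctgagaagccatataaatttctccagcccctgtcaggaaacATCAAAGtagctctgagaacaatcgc
Defa22: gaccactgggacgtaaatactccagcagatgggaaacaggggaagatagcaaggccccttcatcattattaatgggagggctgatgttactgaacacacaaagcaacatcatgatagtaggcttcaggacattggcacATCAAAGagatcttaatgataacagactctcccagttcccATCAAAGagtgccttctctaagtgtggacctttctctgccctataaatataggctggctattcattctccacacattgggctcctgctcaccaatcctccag
Defa30: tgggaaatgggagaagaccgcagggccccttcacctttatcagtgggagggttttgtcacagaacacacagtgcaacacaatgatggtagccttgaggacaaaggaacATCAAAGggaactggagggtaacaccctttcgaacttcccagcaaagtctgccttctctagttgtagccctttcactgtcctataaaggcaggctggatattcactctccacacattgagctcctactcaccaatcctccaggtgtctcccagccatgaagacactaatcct
The first base of the core lay at position 5 after the start in Mmp7, at -112 and -72 in Defa22 and at -142 in Defa30. The window of the second Mmp7 start (chr9:7692091-7692370), which overlaps the first, held the same site at -247. Lyz1, Ang4 and Itln1 held no match, which says only that these letters are not in these windows. Of 32851 promoters in the table, 3.555% held the core, against 13 of 16 α-defensin promoters, which are copies of each other and no independent cases. The letters TATAAA, searched on the plus strand, began at -31 in Defa22, at -61 in Defa30 and at -123 and -26 in Mmp7, and overlapped no ATCAAAG match. They were found in 8.024% of all promoters and in 15 of 16 α-defensin promoters. A match of letters describes the sequence and does not show a binding site.

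Total counts were between 71506487 and 79919893 per sample, of which mitochondrial genes took between 7.70% and 8.20%. Levels of a gene are given as CPM, its counts after scaling of all libraries to the same size with TMM factors of 0.931 to 1.04. A value of 3 counts is then 0.0375 to 0.0420 CPM, a floor that covers counting error only. The 8 genes together took 0.474%, 0.452% and 0.807% of the counts with the vector (samples 1 to 3), and 0.393%, 0.254% and 0.466% with circEZH2_005 (samples 1 to 3). Vector sample 3 thus had the largest share and circEZH2_005 sample 2 the smallest, while circEZH2_005 sample 3 lay between vector samples 1 and 2. Vector sample 2 stood nearer to the circEZH2_005 samples than the other vector samples did, with a correlation of log2 CPM across genes of 0.969 to circEZH2_005 sample 1, against 0.951 and 0.955 for vector samples 1 and 3; genes are not independent replicates.

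Paneth cell products were abundant in organoids of both groups. Levels are compared between genes only as FPKM, which divides fragments by transcript length in kilobases and by library size. Averaged over all 6 samples, the order was Defa24 (2225 ± 858 FPKM, SD), Lyz1 (1204 ± 470), Defa30 (1078 ± 500.0), Defa17 (884 ± 298), Defa22 (594 ± 330.3), Itln1 (489 ± 160.2), Ang4 (159 ± 65.8) and Mmp7 (105 ± 49.6). Defa24 ranked between 13 and 30 among all listed genes by FPKM within a sample, and Mmp7 between 222 and 762. Neighbouring means in this order differed by less than the larger SD of the pair, except those of Defa24 and Lyz1 and of Itln1 and Ang4. Within samples the order was steadier, since the genes varied together. Defa24 exceeded Lyz1 in 6 of 6 samples, Lyz1 exceeded Defa30 in 6 of 6 and Itln1 exceeded Ang4 in 6 of 6, whereas Defa30 exceeded Defa17 in 5 of 6 and Defa22 exceeded Itln1 in 5 of 6.

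With circEZH2_005 the group mean of every member was lower, at between 52.9% (Mmp7) and 74.6% (Itln1) of the vector mean in CPM, but 0 of the 8 passed an adjusted p of 0.05 with edgeR's quasi-likelihood test and Benjamini-Hochberg adjustment over 18348 genes. Over all genes tested, 3.67% passed in either direction and 0.986% were lower. DESeq2 called 1 of the 8, Mmp7, which was lower, and over all genes to which it gave an adjusted p it called 13.9% in either direction and 4.26% lower. With an unadjusted p under 0.05, 1 of 8 was lower (Mmp7), where 9.72% of all genes were. With p under 0.05 and a fold change over 2 or under 0.5, 0 of 8 passed, against 7.56% of all genes. The log2 fold change was below 0 for 8 of 8 members, against 50.0% of all genes, and its median was -0.59 over the members and 0.000022 over all genes. Because the 8 genes moved together between samples, these 8 signs are not 8 independent observations. In bulk RNA, fewer Paneth cells and less RNA of these genes per cell cannot be told apart.

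**Figure D1:**
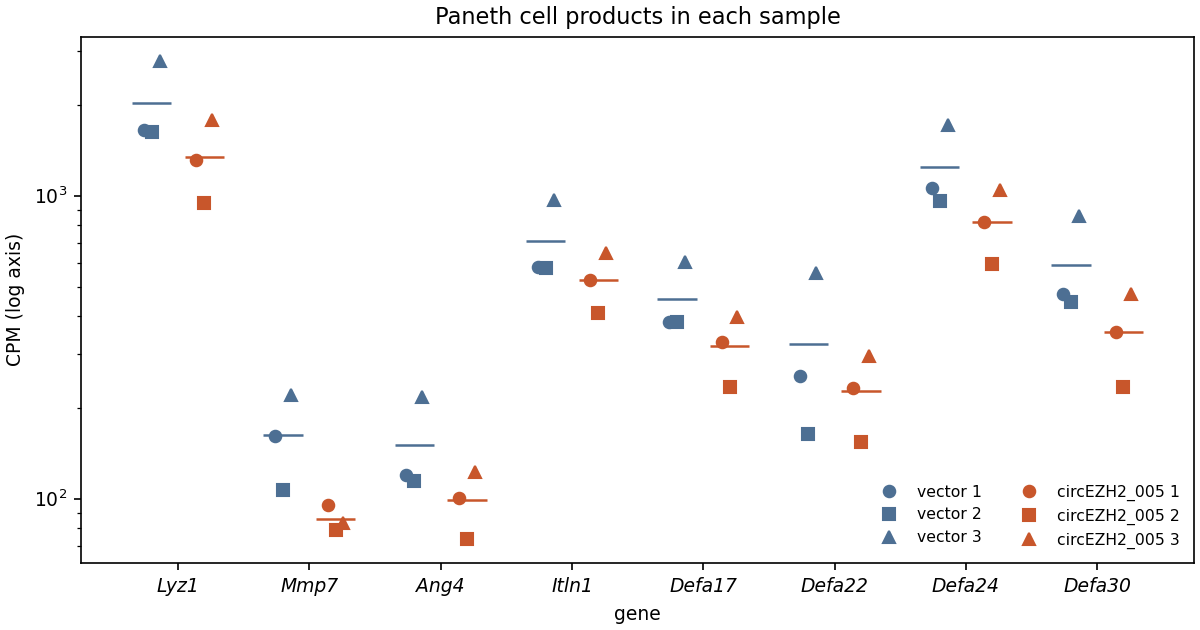
CPM (log axis) of the 8 Paneth cell products in every sample, with the symbol giving the sample number and a line at the group mean. Vector 3 was the highest sample and circEZH2_005 2 the lowest for every gene, and only for Mmp7 did the groups not overlap.

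Mmp7, the enzyme that activates the defensins, differed most. Its gene lies on chromosome 9 (7692090 to 7699585, plus strand, GRCm38). The vector samples held 11642, 8009 and 17168 counts of it, and the circEZH2_005 samples 7581, 5878 and 5977, in the order of samples 1 to 3 used throughout. In CPM this was 161, 107 and 219 against 95.3, 79.0 and 83.4. All circEZH2_005 samples lay below all vector samples, as in 14.2% of all genes tested, with vector sample 2 nearest to them. The means were 162 ± 56.1 CPM with the vector and 85.9 ± 8.46 CPM with circEZH2_005 (SD, n = 3 per group). The log2 fold change of -0.92 (SE 0.23, 95% interval -1.46 to -0.37) did not pass in edgeR's test (adjusted p = 0.0692). The call depended on the samples and the tool: without vector sample 2 the log2 fold change was -1.15 (edgeR's adjusted p = 0.00671), and DESeq2 gave an adjusted p of 0.000546 with all 6 samples. No window of 50 bases in the Mmp7 transcript occurred in another gene. AV064505, on the opposite strand within the Mmp7 region, had between 0 and 3 counts per sample.

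Lyz1 carried the most counts of the 8. Its gene lies on chromosome 10 (117287797 to 117292868, minus strand). It had 119565, 121005 and 218477 counts with the vector and 104318, 70389 and 127291 with circEZH2_005. Vector samples 1 and 2 were nearly level, at 1651 and 1620 CPM, with vector sample 3 at 2791, and the circEZH2_005 samples were at 1312, 946 and 1777. The groups overlapped, since circEZH2_005 sample 3 lay above vector samples 1 and 2. The log2 fold change was -0.59 (SE 0.28, 95% interval -1.24 to 0.067, edgeR's adjusted p = 0.258). Its paralog Lyz2, the lysozyme of macrophages, shared 16.1% of the 50-base windows of Lyz1. Lyz2 itself was at 7.97, 15.0 and 7.61 CPM with the vector and at 11.9, 4.93 and 17.7 CPM with circEZH2_005 (log2 fold change 0.18, edgeR's adjusted p = 0.859).

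Ang4, on chromosome 14 (51763878 to 51773590, minus strand), had counts of 8674, 8523 and 16966 with the vector and of 8015, 5483 and 8797 with circEZH2_005. In CPM these were 119.8, 114 and 217 against 101, 73.7 and 123, so that vector samples 1 and 2 lay just under circEZH2_005 sample 3. The log2 fold change was -0.60 (SE 0.28, 95% interval -1.25 to 0.049, edgeR's adjusted p = 0.244). Ang, a related ribonuclease made by many tissues, was at 9.31, 9.61 and 10.9 CPM with the vector and 9.36, 10.9 and 10.7 CPM with circEZH2_005.

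Itln1, on chromosome 1 (171518122 to 171535294, minus strand), had counts of 42036, 42994 and 75677 with the vector and of 42050, 30438 and 46204 with circEZH2_005. In CPM the values were 581, 575 and 967 against 529, 409 and 645. It showed the smallest difference of the 8, a log2 fold change of -0.42 (SE 0.24, 95% interval -0.99 to 0.14, edgeR's adjusted p = 0.339), and circEZH2_005 sample 3 was again above vector samples 1 and 2.

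Among the α-defensins, Defa24 had the most counts. Defa24 (chromosome 8, 21734494 to 21735471) had 76721, 71896 and 133532 counts with the vector and 64945, 44189 and 75091 with circEZH2_005. Its CPM values of 1060, 962 and 1706 with the vector and 817, 594 and 1048 with circEZH2_005 overlapped, with circEZH2_005 sample 3 between vector samples 2 and 1. The log2 fold change was -0.60 (SE 0.27, 95% interval -1.22 to 0.020, edgeR's adjusted p = 0.225).

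Defa30 (chromosome 8, 21134642 to 21135598) had counts of 34281, 33416 and 67031 with the vector and of 28316, 17412 and 34027 with circEZH2_005. Its CPM values were 473, 447 and 856 against 356, 234 and 475, and circEZH2_005 sample 3 lay just above vector sample 1. Its log2 fold change of -0.74 (SE 0.32, 95% interval -1.48 to 0.00059, edgeR's adjusted p = 0.211) was second to that of Mmp7 in size. Defa17 (chromosome 8, 21655780 to 21656735) had counts of 27829, 28514 and 47250 with the vector and of 26189, 17413 and 28420 with circEZH2_005. In CPM it was at 384, 382 and 604 against 329, 234 and 397, with a log2 fold change of -0.51 (SE 0.24, 95% interval -1.07 to 0.044, edgeR's adjusted p = 0.245). Both genes thus repeated the order of samples seen for Lyz1.

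Defa22 (chromosome 8, 21162277 to 21163249) varied most between vector samples. It had 18397, 12190 and 43467 counts with the vector and 18395, 11477 and 21184 with circEZH2_005. In CPM it was at 254, 163 and 555 against 231, 154 and 296, so that vector sample 2 fell among the circEZH2_005 samples. The coefficient of variation was 63.3% in the vector group, against 27.9% to 38.7% for the other members. The log2 fold change of -0.51 (SE 0.43, 95% interval -1.52 to 0.49, edgeR's adjusted p = 0.528) was the least certain of the 8.

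Much of the difference in the members other than Mmp7, and a smaller part of that in Mmp7, rested on vector sample 3. Its CPM was between 1.58 times (Defa17) and 2.66 times (Defa22) the mean of vector samples 1 and 2. Without it, the median log2 fold change of the members was -0.27, with 7 of 8 below 0, and Defa22 turned to 0.12 (edgeR's adjusted p = 0.883). Lyz1 was then at -0.29 (edgeR's adjusted p = 0.607). Mmp7 was at -0.64 (edgeR's adjusted p = 0.187), beside -0.92 with all 6 samples. In CPM, the mean of vector samples 1 and 2 was 1635 for Lyz1 beside 1345 over the circEZH2_005 samples, 134 beside 85.9 for Mmp7, and 209 beside 227 for Defa22. Without circEZH2_005 sample 2, which was lowest for all 8 genes, the median was -0.40, and 8 of 8 remained below 0. Without circEZH2_005 sample 3 it was -0.80, with 0 of 8 called.

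**Figure D2:**
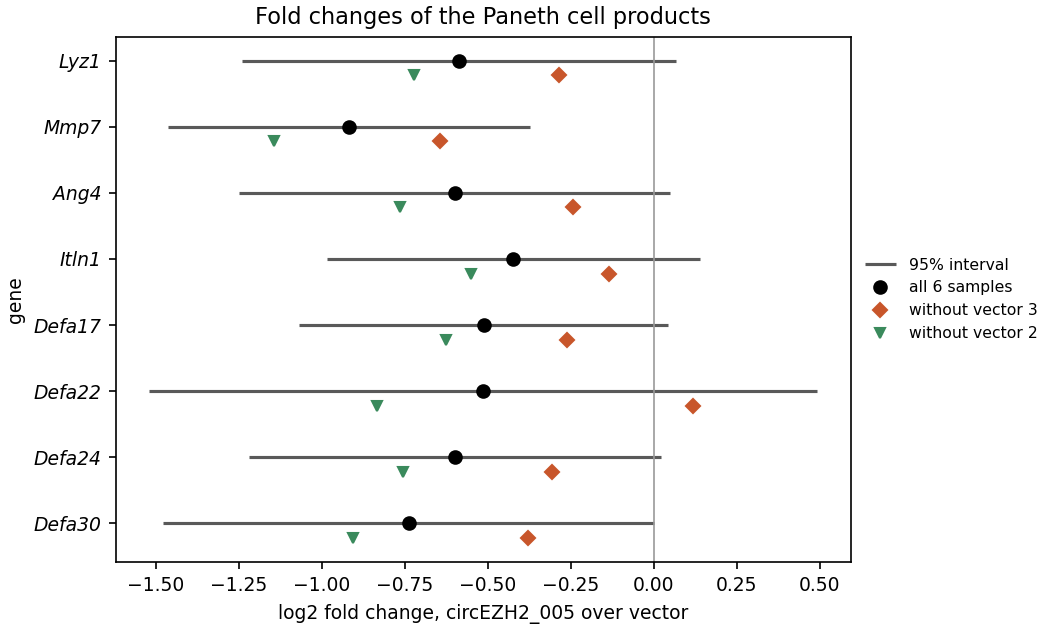
Log2 fold change of each Paneth cell product, circEZH2_005 over vector, from edgeR (black points, with 95% intervals), and the same without vector 3 (diamonds) or without vector 2 (triangles). The interval of Mmp7, -1.46 to -0.37, is the only one that lies wholly below 0, and Defa22 moves to 0.12 without vector 3.

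The products varied together. All 8 were highest in vector sample 3 and lowest in circEZH2_005 sample 2. Over the 6 samples, Pearson's correlation of log2 CPM with the mean of the other members was between 0.981 and 0.996 for 6 genes, and was 0.887 for Defa22 and 0.816 for Mmp7; the points share libraries and 2 groups, and these values are a description. Relative to Lyz1, most members were steady. Defa24 counts were 61.6% ± 2.41 of Lyz1 counts with the vector and 61.3% ± 2.05 with circEZH2_005 (SD, n = 3), and those of Ang4 were 7.35% ± 0.371 and 7.46% ± 0.480. Itln1 was at 35.1% ± 0.448 and 40.0% ± 3.49, and Defa30 at 29.0% ± 1.56 and 26.2% ± 1.29.

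Mmp7 and Defa22 left this common course, both of them in vector sample 2 and Mmp7 also in circEZH2_005 sample 3. CPM in vector sample 2 was 0.667 times that in vector sample 1 for Mmp7 and 0.642 times for Defa22. For the other members it was between 0.908 and 0.993 times. Mmp7 counts were 9.74%, 6.62% and 7.86% of Lyz1 counts with the vector and 7.27%, 8.35% and 4.70% with circEZH2_005, lowest in circEZH2_005 sample 3, where the other products were highest of their group. Defa22 counts were 15.4%, 10.1% and 19.9% of Lyz1 counts in vector samples, whereas the circEZH2_005 samples were close together at 17.6%, 16.3% and 16.6%.

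**Figure D3:**
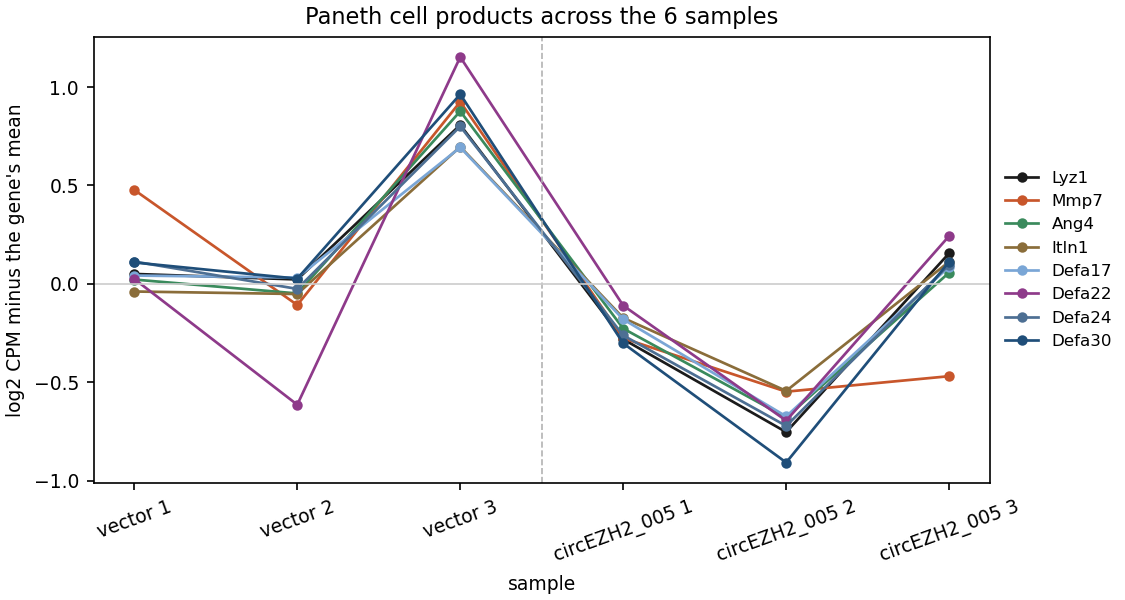
Log2 CPM of each Paneth cell product in every sample, as the difference from the mean of that gene over the 6 samples; lines join the values of a gene and imply no order of samples. Most genes follow the same course, Defa22 and Mmp7 are low in vector 2, and Mmp7 is low in circEZH2_005 3 too.

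The low value of Defa22 in vector sample 2 was shared by the α-defensins nearest to it in sequence, and also by Mmp7, which is no defensin. Among the 22 α-defensin genes with a mean of at least 1000 counts, the ratio of CPM in vector sample 2 to that in vector sample 1 was between 0.620 and 0.686 in Defa32, Defa22, Defa21, Defa20, Defa33 and Defa2, and between 0.714 and 1.06 in the other 16. It was 0.993 for Defa17, 0.908 for Defa24 and 0.945 for Defa30. The last coding exons of those 6 genes were 81.4% to 100% identical to each other (median 82.3% over 15 pairs) and 39.2% to 69.9% identical to those of the 13 genes with a ratio above 0.85 (median 64.5%). The 13 genes were 39.8% to 100% identical among themselves. Defa41, Defa34 and Defa5, whose ratios lay above those of the 6 genes but under 0.85, were left out of this comparison. Their last coding exons were 64.5%, 66.4% and 66.4% identical to that of Defa22. Among the 13 genes, Defa17 was 65.4% and Defa36 66.4% identical to it. Ratios under 0.85 were thus not confined to the nearest relatives of Defa22. The 6 genes were chosen after their values were seen, and reads of near-identical genes cannot be told apart, so this is a description with no test.

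**Figure D4:**
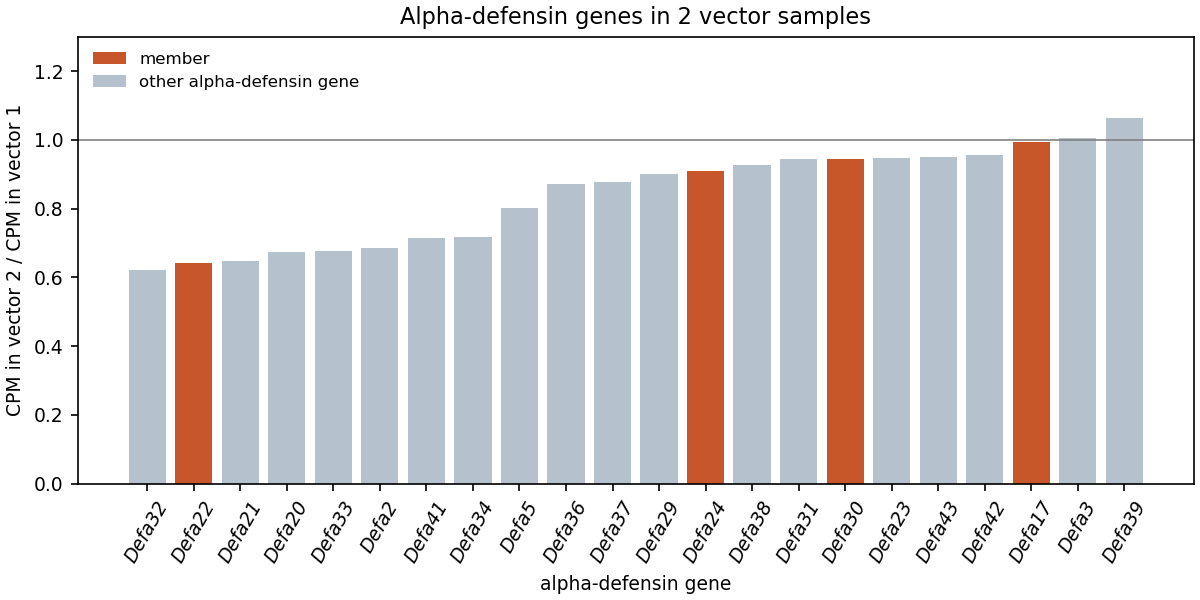
Ratio of CPM in vector 2 to CPM in vector 1 for the 22 α-defensin genes with a mean of at least 1000 counts, with the 4 members among them in orange. Defa22, at 0.642, stands with 5 of its relatives at the low end, and Defa24, Defa30 and Defa17 stand between 0.908 and 0.993.

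How far the reads of a defensin can be told from those of its relatives differs by gene. Of the 50-base windows of the Defa17 transcript, 92.0% also occurred in another gene, all of them in Defa3, and 90.6% of its 100-base windows did. For Defa22 the shares were 74.9% and 40.3%, mostly with Defa21, for Defa30 52.4% and 0.334%, and for Defa24 28.1% and 0%. A paired-end read length of 150 bases is named for the sequencing of the study as a whole and not for these libraries separately. Of windows of that length, 88.7% of those of Defa17 and 10.7% of those of Defa22 were shared, and 0% of those of the other 6 members. How reads with several matches were counted is not given. The split of counts between Defa17 and Defa3, and between Defa22 and Defa21, is therefore uncertain. For Ang4 4.70% and for Itln1 1.01% of 50-base windows were shared. Summing all 37 α-defensin rows, pseudogenes included, avoids the split between listed copies. If a read was counted in each copy that it matches, however, the sum holds it more than once. Defa37, all of whose 150-base windows occur in Defa36, held 15050 counts in vector sample 1, beside 15048 for Defa36. The 37 rows came to 468655, 417733 and 924076 counts with the vector and 414406, 275187 and 489904 with circEZH2_005. Their log2 fold change was -0.60 (SE 0.32, 95% interval -1.34 to 0.14, edgeR's adjusted p = 0.305).

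**Figure D5:**
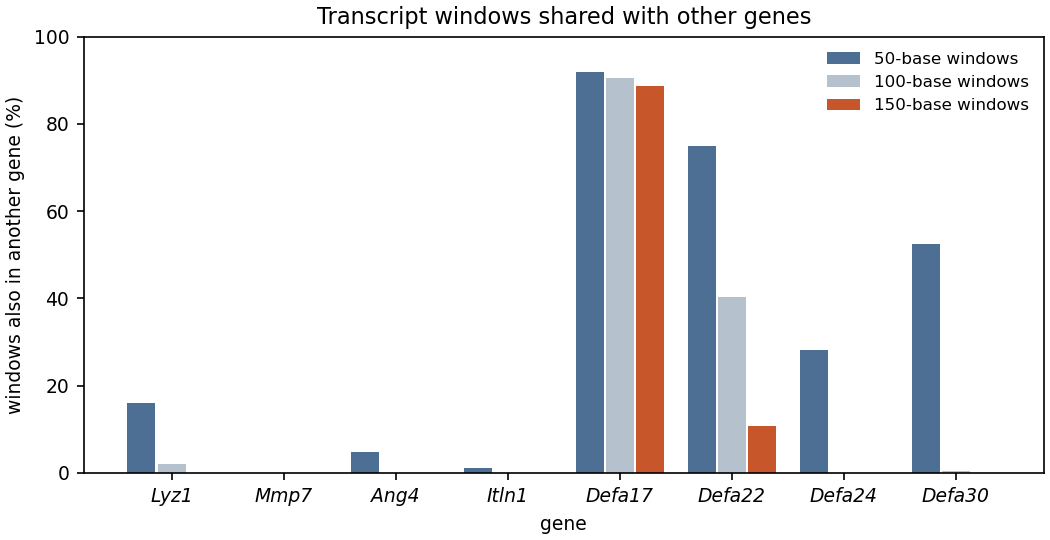
Share (%) of the 50-base, 100-base and 150-base windows of each transcript that also occur in a transcript of another gene of GENCODE M21. Mmp7 shares 0% of its windows, and Defa17 shares 92.0%, 90.6% and 88.7%.

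The other α-defensin genes gave a like picture. Of 33 listed that are no members, 10 of them pseudogenes, 30 were tested. Of the 30, 29 had a log2 fold change below 0 (median -0.65) and 0 passed the adjusted p. At an unadjusted p under 0.05, 7 were lower, against 9.72% of all genes. DESeq2, which fitted all 33, called 4 lower, where it called 4.26% of all genes lower. Among those 4, Defa-ps6 and Defa-ps7 are pseudogenes. Many of these genes are near copies of each other, so their signs are not independent. In a list of 13 further secreted Paneth products, which includes 10 of these defensins, 13 of 13 were below 0 (median -0.55) and 0 were called by edgeR. The 10 defensins are near copies of each other, so these are not 13 independent signs. Of the 13, 5 were lower with an unadjusted p under 0.05, against 9.72% of all genes. DESeq2 called 3 lower, where it called 4.26% of all genes lower. With the replicate block edgeR called 2, Defa29 and Defa38, both lower, where it called 36 of all 18348 genes lower. Of the 13, Defa20 had the most counts. It was at 415, 280.0 and 766 CPM with the vector and at 390.0, 290.2 and 489 CPM with circEZH2_005 (log2 fold change -0.32, edgeR's adjusted p = 0.639). All circEZH2_005 samples lay below all vector samples for 5 of the 13, as in 14.2% of all genes. These were Mptx2, Pla2g2a, Defa29, Defa38 and Defa39, and the values of the first 3 are given, chosen after they were seen. Mptx2, a mucosal pentraxin, was at 188, 165 and 376 CPM against 123, 76.4 and 143 (log2 fold change -1.09, SE 0.35, edgeR's adjusted p = 0.112). Pla2g2a, a phospholipase that kills bacteria, was at 24.6, 20.8 and 32.8 CPM against 17.0, 11.9 and 16.1 (log2 fold change -0.79, SE 0.20, edgeR's adjusted p = 0.0679). Defa29, a cryptdin-related sequence, was at 123, 110.4 and 231 CPM against 64.4, 37.4 and 83.9 (log2 fold change -1.32, SE 0.36, edgeR's adjusted p = 0.0795).

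By their course over the 6 samples, the genes most like the mean log2 CPM of the members, among 13341 genes compared, were Defa42 and Defa43 (both r = 0.994), Defa31 (0.993), Defa23 (0.992) and Srprb (0.988). Srprb, a subunit of the receptor that brings secretory proteins to the endoplasmic reticulum, was the first that is no defensin, and its log2 fold change was -0.13 (SE 0.08, edgeR's adjusted p = 0.404).

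Of 10 transcription factors and other regulators of the Paneth cell, 0 were called by edgeR or by DESeq2, with 6 of 10 log2 fold changes below 0 and a median of -0.16. The 2 with an unadjusted p under 0.05 were Xbp1, which was lower, and Gfi1, which was higher (log2 fold change 0.60, edgeR's adjusted p = 0.161). At that p, 9.72% of all genes were lower and 14.0% higher. Xbp1, a factor of the secretory stress response and the one with the most counts, was at 215, 209 and 209.9 CPM with the vector and at 175, 185.0 and 185.1 CPM with circEZH2_005 (log2 fold change -0.22, SE 0.07, edgeR's adjusted p = 0.128). The summed level of the 10 factors was 446 to 496 CPM with the vector and 442 to 450.5 CPM with circEZH2_005. Of the 5 niche ligands that Paneth cells and other secretory cells supply, 0 were called by either tool, and 0 had an unadjusted p under 0.05 in edgeR. Dll1, a Notch ligand, was at 33.9, 36.4 and 37.4 CPM with the vector and 28.0, 41.3 and 34.2 CPM with circEZH2_005 (log2 fold change -0.06, edgeR's adjusted p = 0.852).

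Markers of other cell types differed beside the Paneth cell products. Among 7 goblet cell markers edgeR called 1, where it called 493 of all 18348 genes higher. This was Clca1, a secreted protein of mucus, which rose from 492, 644 and 600.1 CPM to 927, 1167 and 848 CPM (log2 fold change 0.76, edgeR's adjusted p = 0.0433). DESeq2 called Clca1 and Tff3 higher and Agr2 lower, where it called 9.65% of all genes higher and 4.26% lower. Of the 7, 5 had a log2 fold change above 0 and 2 below, Agr2 (-0.33, edgeR's adjusted p = 0.110) and Spink4 (-0.28, edgeR's adjusted p = 0.149), with a median of 0.14. Among 8 stem cell markers 3 were called by edgeR, all lower, where 0.986% of all genes were. DESeq2 called 5 of the 8 lower, where it called 4.26% of all genes lower. Of the 8, 7 had a log2 fold change below 0 (median -0.58). Axin2 was above 0 (0.31, edgeR's adjusted p = 0.219). Olfm4 (-0.42, edgeR's adjusted p = 0.314) and Cdca7 (-0.11, edgeR's adjusted p = 0.742) were called by neither tool. Lgr5, a receptor for R-spondins that the label of these cells rests on, fell from 16.1, 12.1 and 18.3 CPM to 8.55, 9.10 and 7.70 CPM (log2 fold change -0.88, edgeR's adjusted p = 0.0434). Smoc2, a matrix protein, fell by 0.81 and Rgmb, a co-receptor for bone morphogenetic proteins, by 0.58 on the log2 scale (edgeR's adjusted p = 0.0203 and 0.0284). Among 7 enterocyte markers edgeR called 1, Apoa4, an apolipoprotein. It was at 2061, 2122 and 1950.2 CPM with the vector and 3012, 4371 and 4141 CPM with circEZH2_005 (log2 fold change 0.91, edgeR's adjusted p = 0.0279). DESeq2 called 4 of the 7 higher, Fabp2, Lct, Apoa4 and Apoa1, where it called 9.65% of all genes higher. Of the 7, 5 were above 0, each with an unadjusted p under 0.05, where 14.0% of all genes were higher at that p. The 2 below 0 were Fabp1 (-0.37, edgeR's adjusted p = 0.470) and Sis (-0.29, edgeR's adjusted p = 0.579), and the median was 0.86. The 5 calls by edgeR of goblet, stem cell and enterocyte markers were all lost without vector sample 1, without vector sample 3, and without circEZH2_005 sample 2 or 3. The summed enterocyte markers were at 12574, 11190 and 10624 CPM with the vector and at 10901, 20048 and 15856 CPM with circEZH2_005, so that vector sample 3 was lowest and circEZH2_005 sample 2 highest, the samples with the highest and the lowest level of every Paneth cell product. The other samples did not mirror each other in this way, since circEZH2_005 sample 1 was second lowest in the sum of either list, and circEZH2_005 sample 3 was higher than sample 1 in both. Their part in the result was not tested.

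Leukocyte markers were present as well, although the methods sorted GFP-positive cells before culture. The summed level of 10 markers was 67.3, 189 and 92.8 CPM with the vector and 440.1, 334 and 241 CPM with circEZH2_005, with 10 of 10 log2 fold changes above 0 and 0 called by edgeR, 5 at an unadjusted p under 0.05 (Ptprc, Cd3e, Coro1a, Laptm5 and Cd52) and 3 called higher by DESeq2, which called 9.65% of all genes higher. For 5 of the 10 the groups did not overlap, the vector samples being lower, as in 16.4% of all genes. None of the 10 was at 0 in any sample, the lowest count being 22. Ptprc (CD45), common to leukocytes, was at 22.8, 78.6 and 31.9 CPM against 185, 140.3 and 103 (log2 fold change 1.68, edgeR's adjusted p = 0.0756). Vector sample 2 was thus the highest of the vector group, and it was the lowest of that group in CPM for all 8 Paneth cell products. For 5 of the 8, however, vector samples 1 and 2 were within 1.1 times of each other. The circEZH2_005 group did not mirror this. Its sample 1 had the highest leukocyte sum, whereas its sample 2 was the lowest for all 8 products. The part of leukocyte RNA in the values of the Paneth cell products was not tested.

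The remaining lists held 0 calls by edgeR. Of 7 enteroendocrine markers, 3 had an unadjusted p under 0.05, where 14.0% of all genes were higher and 9.72% lower at that p. Of the 3, Chga (log2 fold change 0.36, edgeR's adjusted p = 0.0604) and Sct (0.66, edgeR's adjusted p = 0.188) were higher and Chgb was lower. DESeq2 called 1, Chga, higher, as it did 9.65% of all genes. The sum of the 7 was 258 to 270.1 CPM with the vector and 245 to 269.8 CPM with circEZH2_005. The one with the most counts, Chgb, was at 144, 148 and 155 CPM against 126, 124 and 132 (log2 fold change -0.23, edgeR's adjusted p = 0.121). Of 4 tuft cell markers tested, 0 had an unadjusted p under 0.05 in edgeR and DESeq2 called 0. Trpm5 was at 11.0, 11.8 and 11.5 CPM against 11.1, 11.9 and 11.3 (log2 fold change 0.0020, edgeR's adjusted p = 0.994). Mesenchymal markers were low, with 6 genes summing to between 2.34 and 11.1 CPM per sample; 0 of 6 had an unadjusted p under 0.05 and DESeq2 called 0. Col3a1, the one with the most counts, was at 1.59, 2.85 and 2.79 CPM with the vector and 4.00, 1.83 and 0.768 CPM with circEZH2_005 (log2 fold change -0.13, edgeR's adjusted p = 0.917).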

How the data were processed

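The 6 samples were grouped from the sample titles into vector (n = 3) and circEZH2_005 (n = 3). The columns of the control group are numbered but named differently in the table, and were read as vector 1 to 3, there being no other control. Libraries were made from oligo(dT)-selected RNA, so circEZH2_005 itself was not analysed here. For each gene the authors deposited a count, without normalization, and an FPKM value. The submitters' processing notes name cutadapt 1.9, HISAT2 2.0.4, StringTie 1.3.4d, DESeq2 and mm10; the annotation, the counting program, the use of strand and the handling of reads with several matches are not given in the sources used here. Counts of 28752 genes were filtered with filterByExpr (18348 kept), scaled by TMM and tested in R 4.3.3 with edgeR 4.0.16 (quasi-likelihood, no covariates) and Benjamini-Hochberg adjustment. The SE was obtained from the log2 fold change and its F statistic. The alternatives used DESeq2 1.42.0 and limma 3.58.1 on log2(FPKM + 1) and log2(FPKM + 0.1), other filters and scaling, a replicate block, and each sample left out in turn. The scripts were tested on simulated data. Depth was between 71506487 and 79919893 counts per sample, so that the spread over 3 samples per group, more than counting error, limits precision. Of each further list, the genes with an adjusted p under 0.05 were named, or else the gene with the most counts, and the 5 genes whose log2 CPM was most like the members' mean, given a mean level of 1 CPM or more. The members and lists were chosen with earlier results of these data known. Older symbols were matched to newer ones through gene identifiers; Defa38, Defa39, Defa40 and Defa29 were found so. The paralogs Ang2, Ang5 and Ang6 were not analysed here. Shared windows are runs of 50, 100 or 150 bases of 1 transcript per gene that occur in any transcript of another gene of GENCODE M21; identity was taken over a global alignment. Protein sequences were not used here.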

Additional observations from a re-analysis of the deposited data

How the results depend on the processing

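Of 104 values of the 8 members over the alternatives, 101 kept their direction and their side of the threshold, 2 became significant (Mmp7 with DESeq2 and without vector sample 2) and 1 turned: Defa22 had a log2 fold change of 0.12 without vector sample 3, and between -0.83 and 0.12 over the samples left out. Members called numbered 0 with edgeR and 1 with DESeq2, and between 0 and 1 with a sample left out; members past both the fold change and p numbered 0, and between 0 and 1 with a sample left out (Mmp7 without vector sample 2 and without circEZH2_005 sample 1, Defa30 without circEZH2_005 sample 3). Over all genes, the 674 calls became 2289 with DESeq2, 169 without a filter, 277 with the replicate block, and between 28 and 1432 with a sample left out, lowest without vector sample 1 and highest without vector sample 2. Calls in the further lists numbered 5 with edgeR, 19 with DESeq2, 3 with the replicate block (Defa29, Defa38 and Smoc2, all lower) and between 0 and 13 with a sample left out. Over all genes tested, the replicate numbers gave no sign of pairs. The correlation of deviations from the group means between samples of the same number was -0.14, -0.02 and 0.04. Of 3 numbers, 1 matched best with its own. The members, however, were lowest in sample 2 of either group. Except for Mmp7 with circEZH2_005, they were highest in sample 3 of either group. Whether the numbers mark pairs was therefore not settled. With the block, 0 members were called, and their median log2 fold change was -0.58. Members with an unadjusted p under 0.05 numbered 7 of 8 with the block, 5 of 8 with DESeq2 and 1 of 8 with edgeR without the block. In that last fit 9.72% of all genes were lower at that p. The share was not taken with the block or with DESeq2, so those counts have no background here. With the block, 2 of 30 α-defensins that are no members were called lower, as were 36 of all 18348 genes. The cause of the changes between fits was not tested. Fits that lose a sample also have fewer degrees of freedom. With 3 samples per group the intervals of 7 of the 8 members included 0, so differences of the sizes seen were not resolved.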
